A study of Ursus arctos with 5 samples.

Results

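Enzymes that handle glutamine, alanine and other amino nitrogen were followed in grizzly bear skeletal muscle as 24 assembled transcripts of 10 genes: GLUL, GLUD1, GPT, GPT2, GOT1, ALDH4A1, ABAT, ASL, ADSSL1 and CAD. They are all the transcripts that carry 1 of these names among the 9093 annotated transcripts, of 26614 in the deposited table. Polyadenylated RNA came from biopsies of the gastrocnemius, a calf muscle, of 2 captive grizzly bears (Ursus arctos), bear 1 (Tia) and bear 2 (Star), each sampled in October when active and again in February during hibernation, after feeding had stopped in early November. All biopsies were taken under tiletamine and zolazepam followed by isoflurane, with less tiletamine and zolazepam in hibernation. The sample labels call the animals adults of 10 years, the study names a subadult and an adult, and which bear is which was not used here. Each bear gave 1 library in each state (n = 2 bears), and no bear has a replicate within a state. Season, fasting, inactivity and the anaesthetic dose differed together between the states and cannot be told apart.

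Values are RPKM, reads per kilobase of transcript scaled to the aligned reads of the library, so levels of different transcripts can be set side by side. Where a gene has several transcripts, its reads may be divided among them. The level of 1 transcript then need not be that of the gene. Changes are differences of log2(RPKM + 0.5), hibernating minus active, on which changes of low transcripts come out too small. The libraries held 44.7 to 54.2 M aligned reads, as read from the steps of the low values, and each member value rested on 33 to 16601 reads. The table lists no value under 1 RPKM, so transcripts that drop under it were not analysed here. Of 6 genes chosen to mark skeletal muscle, only MYOT, a Z-disc protein, carried a transcript (123 to 189.6 RPKM), while no annotated transcript was named ACTA1, CKM, MB, DES or PYGM; the myosin heavy chains MYH1, MYH2 and MYH7 were at 1295 to 7801 RPKM. None of 6 fat cell markers (ADIPOQ, PLIN1, FABP4, LEP, CIDEC and CFD) carried a transcript.

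Muscle releases much of its amino nitrogen as glutamine and alanine, which carry it to liver, kidney and gut without free ammonia. Glutamine synthetase adds ammonia to glutamate, glutamate dehydrogenase removes or adds ammonia at 2-oxoglutarate, and the aminotransferases pass amino groups between glutamate, alanine and aspartate. In working muscle the purine nucleotide cycle also frees ammonia from aspartate, and hibernating bears are known for recycling nitrogen rather than excreting it as urea.

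Of the 24 transcripts, 13 had both hibernating libraries below both active ones and 0 had both above. Among all annotated transcripts the first order was seen in 8.8% and the second in 34.6%. By bear, 15 transcripts were lower in hibernation in both bears and 5, all of GPT2, were higher in both, against 17.2% and 47.8% of annotated transcripts. The median log2 change of the 24 was -0.36, against 0.13 over all annotated transcripts. Counted by gene, with the transcript that holds the most reads, 7 of 10 genes had no overlap between the states and were lower in hibernation, and GPT2 was the only gene of the 10 higher in both bears. Over all 4873 genes counted in this way, 8.11% were below and 35.8% above without overlap, and 16.1% were lower and 48.7% higher in both bears. These shares depend on the scaling of the libraries, since median-ratio scaling shifted the changes by -0.13 in bear 1 and -0.20 in bear 2. With it, 18.1% of annotated transcripts had both hibernating libraries below and 19.3% both above, and 29.3% were higher and 33.3% lower in both bears. Of the 24 members, 15 were then below and 0 above, 18 lower and 5 higher in both bears. By gene, 8 of the 10 were then below, against 17.0% of all genes, and 0 above, against 20.7%.

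**Figure D1:**
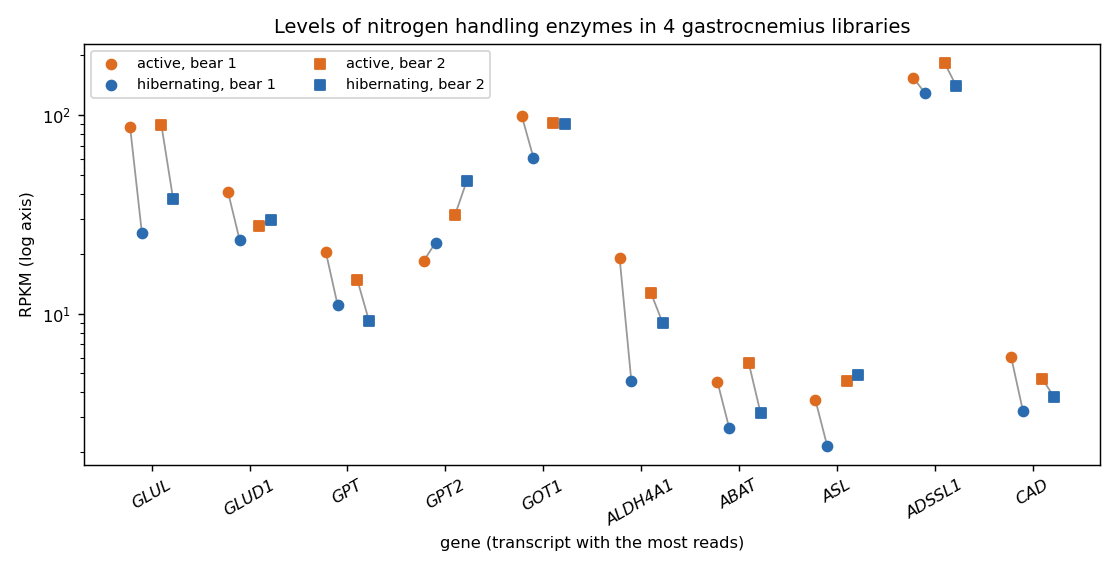
Level of each gene by the transcript with the most reads, in RPKM on a log axis; circles are bear 1, squares bear 2, orange the active and blue the hibernating library, and a line joins the libraries of 1 bear. GLUL lies at 86.8 and 88.7 RPKM in the active bears and at 25.5 and 37.6 in the hibernating ones, and GPT2 is the gene whose blue point is above the orange one by a clear step in both bears.

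No transcript passed the threshold of 0.05 when limma compared the 2 hibernating with the 2 active libraries. The smallest adjusted p was 0.541 among the members, and 0% of the 9093 annotated transcripts were called. At an unadjusted p under 0.05 in limma there were 826, of which 8 were members. Counted by gene, with the transcript that holds the most reads, 4 of the 10 were under it, against 463 of 4873. With the animal as a block, which uses that each bear was sampled in both states, the smallest adjusted p of a member was 0.34 (limma). The study named NOISeq for this comparison, and a score was computed from its description. It is the share of all within-state differences, bear 1 against bear 2, that were no larger than a transcript's own change, in ratio and in size alike. It reached 0.8 for 5 members, 4 of GLUL and 1 of ALDH4A1. All 5 were lower in hibernation, against 1.51% of annotated transcripts past that score and lower, and 0 members were past it and higher, against 2.1%. Under median-ratio scaling these shares were 2.34% lower and 1.19% higher, and 7 members were past the score, all lower. Counted by gene without that scaling, 2 of the 10 were past the score and lower, against 74 of 4873 genes. Past it and higher were 0, against 120.

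Glutamine synthetase, GLUL, had the largest mean log2 change of the 10 genes. Its transcript with the most reads, isotig03330 of 2899 bases (human match ENSG00000135821), went from 86.8 to 25.5 RPKM in bear 1 and from 88.7 to 37.6 in bear 2. Both active libraries were alike, both hibernating ones were far below them, and the groups did not overlap. The active level was 3.40 times the hibernating one in bear 1 and 2.36 times in bear 2. This is a log2 change of -1.49 (standard error 0.26, 95% interval -2.12 to -0.85, adjusted p = 0.541 from limma, score 0.967).

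The remaining GLUL transcripts, isotig03326, isotig03328 and isotig03324, are longer, at 3079 to 3631 bases. Their changes were -1.71 to -1.74 in bear 1 and -1.20 to -1.22 in bear 2. In the hibernating library of bear 1 the 4 transcripts held 3518, 3571, 3656 and 3709 reads, and in its active library they held 12306, 12721, 12809 and 13224, nearly the same number whatever the length. They are not treated as separate measurements, and whether the same reads were counted for each is not stated. Summed over all listed transcripts, reads inferred in this way came to 98.0% to 98.2% of the aligned reads inferred per library. If reads were divided among the 4, the RPKM of each is only a part of the level of the gene. At least 2-fold lower in both bears by RPKM were 0.418% of annotated transcripts, among them these 4, and 0.627% were at least 2-fold higher in both, among them no member. By gene, 20 of 4873 were at least 2-fold lower in both bears, and GLUL ranked 15 from the most negative mean log2 change.

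The score of the 4 GLUL transcripts was 0.962 to 0.976 over the scalings of the libraries. Limma called none of them with all libraries, and did so only with 1 library left out. Without the hibernating library of bear 2, 5 members, the 4 GLUL transcripts and ALDH4A1, were past an adjusted p of 0.05 (smallest 0.0465 from limma), as were 92 annotated transcripts in all. The lone hibernating library is then assumed to vary like the active ones. With any other library left out, the smallest adjusted p of a member was between 0.458 and 0.838 in limma's test.

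Glutamate dehydrogenase, GLUD1, the mitochondrial enzyme that joins or frees ammonia at 2-oxoglutarate, was represented by isotig21337 of 3284 bases (ENSG00000148672). It went from 40.9 to 23.3 RPKM in bear 1 and from 27.6 to 29.7 in bear 2. The active library of bear 1 stood above the other 3 libraries, and the values went in opposite directions in the bears. The log2 change was -0.35 (standard error 0.28, 95% interval -1.03 to 0.33, adjusted p = 0.699 from limma), and 0.10 in bear 2 alone. Under median-ratio scaling the change in bear 2 was -0.10, in the direction of bear 1.

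Within a library, the ratio of GLUL to GLUD1 does not depend on scaling. It went from 2.12 to 1.09 in bear 1 and from 3.22 to 1.27 in bear 2, so both hibernating ratios were below both active ones. These ratios are between single transcripts, and GLUL has 4 where GLUD1 has 1, so their size may not be that of the genes. The mean log2 change of -1.15 gave p = 0.333 in a two-sided exact permutation test over the 4 libraries, which is the smallest p that 2 against 2 allows.

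Alanine aminotransferases move the amino group of glutamate to pyruvate, and mammals have a cytosolic form, GPT, and a mitochondrial form, GPT2. GPT values were lower in hibernation and GPT2 values higher, in both bears. GPT, by isotig15932 of 2667 bases (ENSG00000167701), went from 20.3 to 11.0 RPKM in bear 1 and from 14.8 to 9.19 in bear 2. Both hibernating values were below both active ones, with a log2 change of -0.76 (standard error 0.25, 95% interval -1.37 to -0.15, adjusted p = 0.546 in limma), and the score was 0.791. Its other transcript, isotig15933, had log2 changes of -0.81 and -0.60 in bears 1 and 2. Under median-ratio scaling both GPT transcripts passed a score of 0.8, at 0.846 and 0.817, and both were lower in hibernation.

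GPT2, by isotig07919 of 4046 bases (ENSG00000166123), went from 18.4 to 22.8 RPKM in bear 1 and from 31.5 to 46.7 in bear 2. The states overlapped, because bear 2 had a higher value in activity than bear 1 in hibernation. The log2 change was 0.43 (standard error 0.42, 95% interval -0.61 to 1.47, adjusted p = 0.742 from limma), and -0.08 without the hibernating library of bear 2. All 5 transcripts of GPT2 were higher in hibernation in both bears, by 0.30 to 0.41 in bear 1 and by 0.49 to 0.67 in bear 2, and they stayed higher in both bears under median-ratio scaling (0.17 to 0.30 and 0.29 to 0.47). They range from 2.66 to 46.7 RPKM and from 2796 to 4046 bases, and how reads that fit several of them were assigned is not stated.

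The ratio of GPT2 to GPT went from 0.91 to 2.07 in bear 1 and from 2.12 to 5.08 in bear 2. These are steps of 2.28-fold and 2.39-fold, close to each other. Since the hibernating library of bear 1 and the active library of bear 2 had nearly the same ratio, the exact permutation test over libraries, which ignores the pairing by bear, gave a two-sided p of 0.667 for the mean log2 change of 1.22. With the mean over the transcripts of each gene in place of the one with the most reads, the change was also 1.22. The ratios printed rest on 1 of 2 GPT and 1 of 5 GPT2 transcripts, so their size may not be that of the genes.

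**Figure D2:**
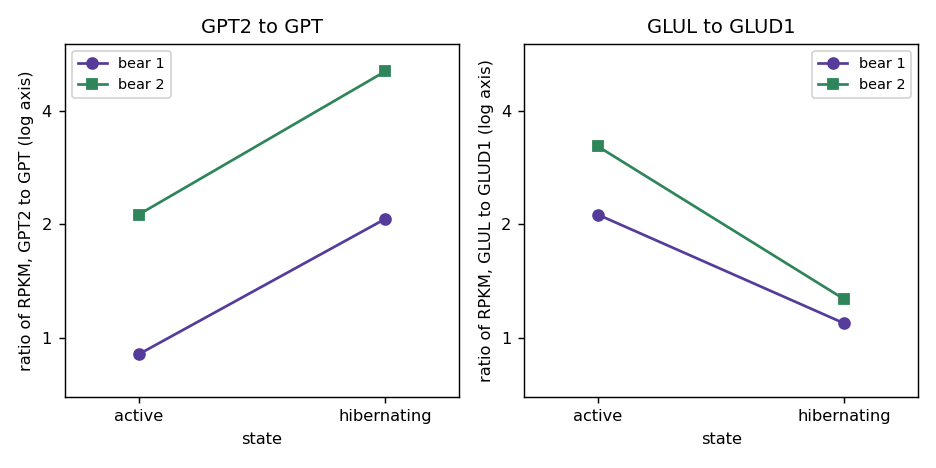
Ratio of RPKM within each library, GPT2 to GPT on the left and GLUL to GLUD1 on the right, on log axes, against the state; each line joins the active and the hibernating library of 1 bear. The GPT2 to GPT lines go up in parallel, from 0.91 to 2.07 and from 2.12 to 5.08, and the GLUL to GLUD1 lines go down to 1.09 and 1.27.

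GOT1 is the cytosolic aspartate aminotransferase, which links glutamate with aspartate and serves the malate-aspartate shuttle. By the transcript with the most reads, it was among the most abundant of the 10. By isotig07729 of 1853 bases (ENSG00000120053) it went from 99.2 to 61.0 RPKM in bear 1 and from 91.6 to 89.8 in bear 2. The states did not overlap, but only by a narrow margin, since the hibernating library of bear 1 stood apart and the other 3 lay within 89.8 to 99.2 RPKM. The log2 change was -0.36 (standard error 0.27, 95% interval -1.02 to 0.30, adjusted p = 0.687 from limma). Transcripts isotig07730 and isotig07731 had log2 changes of -0.71 and -0.58 in bear 1 and of 0.03 and -0.06 in bear 2. No annotated transcript was named GOT2, the mitochondrial form.

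ALDH4A1 and ABAT are mitochondrial enzymes that yield glutamate, the former in the last step of proline breakdown and the latter by moving the amino group of GABA to 2-oxoglutarate. ALDH4A1, by its single transcript isotig21453 of 3140 bases (ENSG00000159423), went from 19.1 to 4.57 RPKM in bear 1 and from 12.7 to 8.97 in bear 2. Both hibernating values were below both active ones, but the size differed, with the active level 4.19 times the hibernating one in bear 1 and 1.41 times in bear 2. The log2 change was -1.22 (standard error 0.37, 95% interval -2.13 to -0.30, adjusted p = 0.541 from limma). The score was 0.899, under the stricter threshold of 0.9, but 0.925 under median-ratio and 0.923 under upper-quartile scaling. In bear 2 alone the change was -0.48, and without the hibernating library of bear 2 it was -1.67, with an adjusted p of 0.0465 from limma.

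ABAT, by isotig21181 of 3552 bases (ENSG00000183044), went from 4.52 to 2.65 RPKM in bear 1 and from 5.61 to 3.16 in bear 2. The bears gave nearly the same change, -0.67 and -0.74, and the states did not overlap. The log2 change was -0.71 (standard error 0.24, 95% interval -1.29 to -0.12, adjusted p = 0.546 from limma) and the score 0.688. Its second transcript, isotig43803, has 436 bases and 33 to 71 reads per library. It was at 1.51 to 3.64 RPKM with log2 changes of -0.39 and -0.35 and counting intervals (95%, Poisson, covering counting error only) that include 0 in each bear.

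ASL, argininosuccinate lyase, forms arginine and fumarate, in the urea cycle of the liver and in arginine synthesis elsewhere. Its transcript isotig22625 of 2264 bases (ENSG00000126522) went from 3.67 to 2.16 RPKM in bear 1 and from 4.58 to 4.88 in bear 2. The hibernating library of bear 1 was the lowest library, the values went in opposite directions in the bears, and the counting interval of the change in bear 2, -0.09 to 0.26, included 0. The log2 change was -0.28 (standard error 0.38, 95% interval -1.21 to 0.64, adjusted p = 0.791 from limma), 0.23 without the hibernating library of bear 1 and 0.08 in bear 2 alone.

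ADSSL1, the muscle form of adenylosuccinate synthetase, takes up aspartate in the purine nucleotide cycle. By the transcript with the most reads it had the highest level of the 10. By isotig16929 of 2036 bases (ENSG00000185100) it went from 154 to 129 RPKM in bear 1 and from 183 to 139.8 in bear 2. The states did not overlap. The log2 change of -0.32 (standard error 0.24, 95% interval -0.90 to 0.26) had an adjusted p of 0.687 from limma. Transcript isotig16930 went from 65.0 to 54.7 and from 80.0 to 56.9 RPKM. The third, isotig22336, matched another human transcript and was at 1.74 to 4.05 RPKM, with changes of -0.81 in bear 1 and -0.01 in bear 2.

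AMPD1, the muscle AMP deaminase that frees ammonia in the same cycle, was the only gene named by rule among the other genes of these pathways. It went from 95.7 to 52.9 RPKM in bear 1 and from 100.7 to 69.7 in bear 2. Both hibernating values were below both active ones, with a log2 change of -0.69 (standard error 0.24, adjusted p = 0.549 in limma), and the score was 0.781. AMPD2 and ADSS, the non-muscle forms, were at 2.07 to 4.72 RPKM. Both had both hibernating values above both active ones, with log2 changes of 0.35 and 0.25. Over all genes, 35.8% had this order and 8.11% the opposite one. In bear 2 AMPD2 and ADSS changed by 0.22 and 0.20, close in size to the median-ratio shift of -0.20 there. No annotated transcript was named ADSL, the remaining enzyme of the cycle.

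CAD, which starts pyrimidine synthesis from glutamine, was at 3.23 to 6.03 RPKM by isotig21126 of 3645 bases (ENSG00000084774). It went from 6.03 to 3.23 RPKM in bear 1 and from 4.67 to 3.78 in bear 2. The states did not overlap, with a log2 change of -0.54 (standard error 0.24, 95% interval -1.14 to 0.06, adjusted p = 0.577 from limma). A shorter transcript, isotig29101 of 952 bases with 83 to 196 reads, went from 2.62 to 1.74 RPKM in bear 1 and from 2.61 to 3.80 in bear 2. Its counting intervals excluded 0 in both bears, in opposite directions, and its mean change was -0.0043.

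**Figure D3:**
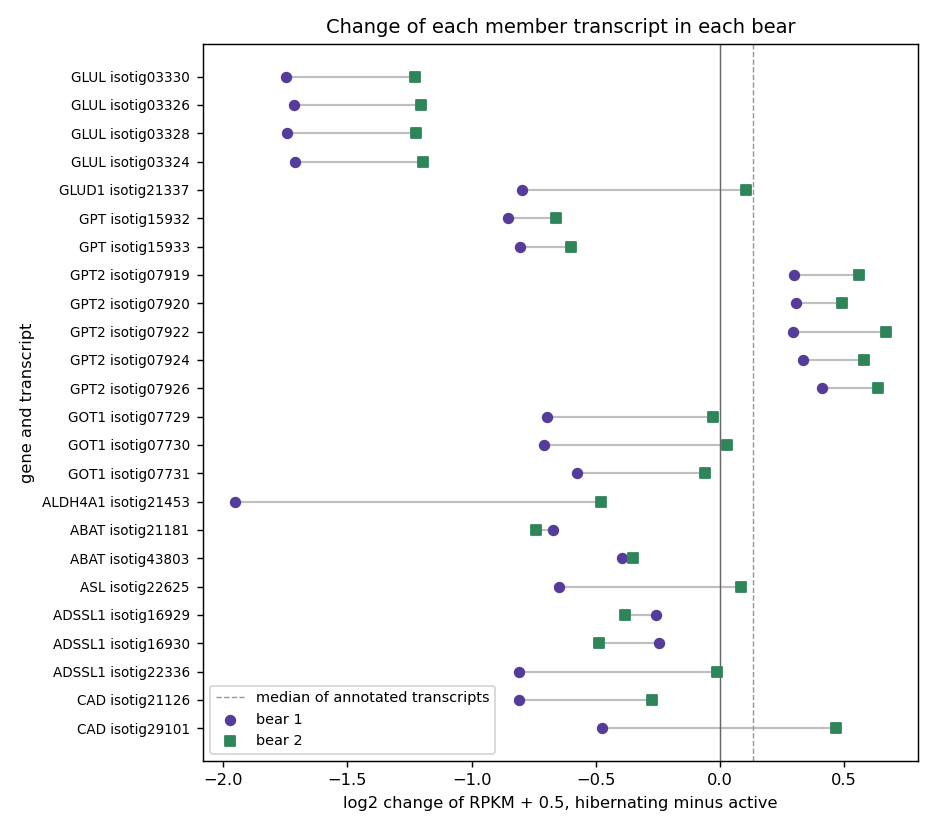
Log2 change of each of the 24 transcripts, hibernating minus active, in bear 1 (circles) and bear 2 (squares), with the dashed line at the median of annotated transcripts (0.13). The GLUL transcripts lie left of -1 in both bears, and those of GPT2 are the only ones to the right of 0 in both. For GLUD1, GOT1, ALDH4A1, ASL, CAD isotig29101 and ADSSL1 isotig22336 bear 1 lies well to the left of bear 2.

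The bears differed in the size of these changes. By gene, the median log2 change was -0.75 in bear 1 and -0.33 in bear 2, where all 4873 genes had medians of 0.13 and 0.17. GLUD1, GOT1 and ASL had log2 changes of -0.80 to -0.65 in bear 1 and of -0.03 to 0.10 in bear 2. ABAT, ADSSL1 and GPT2 had a change of greater size in bear 2. With 1 library per bear and state, the difference between the bears could not be tested.

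**Figure D4:**
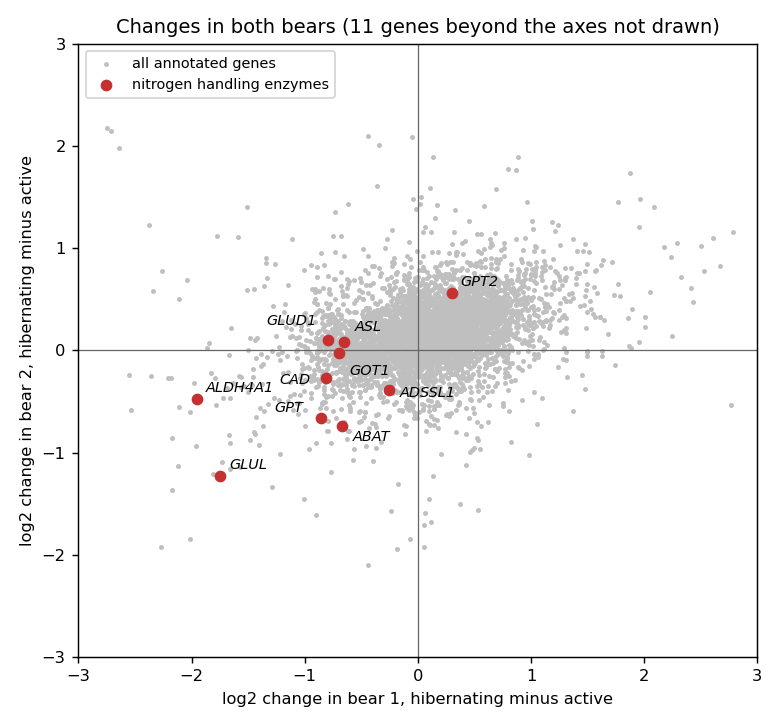
Log2 change in bear 2 against that in bear 1, hibernating minus active, for all 4873 annotated genes (grey, 11 beyond the axes) and the 10 enzymes (red). GLUL, at -1.75 and -1.23, is among the few genes in the lower left, and GPT2 is the only 1 of the 10 in the upper right.

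Markers of other cells and of fibre type differed between the states as well, and their part in these results was not tested. In bulk tissue, fewer cells of a type and less RNA per cell cannot be told apart. Of 5 connective tissue markers 3 carried a transcript, DCN and LUM did not, and their summed level was 269 and 223 RPKM in the hibernating and 312 and 146 in the active libraries of bears 1 and 2. The sum in the active library of bear 1 includes 193 RPKM of COL1A1, against 6.79 to 11.0 in the other libraries. COL3A1 went from 116 to 254 RPKM in bear 1 and from 136 to 209.8 in bear 2, without overlap and so under both scalings. COL1A2 went from 2.59 to 3.995 and from 3.15 to 3.59 RPKM, also without overlap, though its log2 change in bear 2 was -0.0086 under median-ratio scaling. CD68, the only 1 of 8 blood and macrophage markers with a transcript, went from 3.94 to 6.41 RPKM in bear 1 and from 3.28 to 7.12 in bear 2, and PECAM1, the only 1 of 5 endothelial ones, was at 7.53 to 13.0 RPKM. Of 6 fast fibre markers 3 were found, with sums of 6062 and 11800 RPKM in hibernation and 7780 and 11630 in activity, and MYH1 went from 4823 to 2054 RPKM in bear 1 and from 7801 to 7625 in bear 2. MYH2 went the other way, from 2755 to 3841 and from 3493 to 3863 RPKM without overlap, though in bear 2 its log2 change was -0.06 under median-ratio scaling and -0.01 under upper-quartile scaling, and ATP2A1 had log2 changes of -0.27 and -0.12. Of 5 slow fibre markers 2 were found, MYH7 and MYL3, with sums of 5552 and 2187 RPKM in hibernation and 4972 and 2761 in activity. MYOT was lower in hibernation in both bears, at 123 and 155 RPKM against 181 and 189.6, with log2 changes of -0.56 and -0.29. Their mean was -0.43, and the median over the 10 enzymes was -0.45. MYOT is only 1 gene, and the fibre markers found changed by -1.23 to 0.48 in bear 1 and by -0.51 to 0.145 in bear 2. Whether muscle content plays a part in the changes of the enzymes was not tested.

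Ordered by the mean over the 4 libraries, the levels were 151 RPKM for ADSSL1, 85.4 for GOT1, 59.7 for GLUL, 30.4 for GLUD1, 29.8 for GPT2, 13.8 for GPT, 11.3 for ALDH4A1, 4.43 for CAD, 3.98 for ABAT and 3.82 for ASL. Only ADSSL1 had a range apart from that of the next gene, 129 to 183 RPKM against 61.0 to 99.2 for GOT1. Between all other neighbours in this order the ranges, which pool both states, overlapped. Within every library GOT1 was above GLUL, GLUL above GLUD1, GPT above ALDH4A1 and ALDH4A1 above CAD. The remaining overlapping neighbours changed places between libraries. In activity GLUL was close to GOT1, at 86.8 and 88.7 against 99.2 and 91.6 RPKM. In hibernation GLUL was at 25.5 and 37.6 against 61.0 and 89.8. All of these are levels of 1 transcript per gene. In the active library of bear 1 the 4 GLUL transcripts were at 64.5 to 86.8 RPKM. Those of ADSSL1 were there at 154, 65.0 and 3.43 RPKM, and those of GOT1 at 99.2, 61.0 and 26.4. If reads were divided among the transcripts of a gene, the order of the genes could differ.

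Of 40 further genes listed for these pathways, 19 had an annotated transcript. By limma 0 passed the threshold (adjusted p 0.549 to 0.982), 1 had an unadjusted p under 0.05, and none reached a score of 0.8. Both hibernating libraries were above both active ones for 4, among them ADSS, AMPD2 and UMPS, and below for 2, AMPD1 and ASPA, against 35.8% above and 8.11% below over all genes. Under median-ratio scaling 3 were above and 4 below, against 20.7% and 17.0%. In both bears 7 were higher and 5 lower (48.7% and 16.1% over all genes), with a median log2 change of -0.11 (0.15 for the 4873 genes). AGXT2, ASNS, ASS1, CTPS and NIT2 each had a log2 change of -0.80 to -0.34 in bear 1 and of 0.05 to 0.21 in bear 2. PRODH and OAT, enzymes of proline and ornithine breakdown, were at 1.06 to 2.83 RPKM. GATM, the first enzyme of creatine synthesis, was at 26.7 to 62.3 RPKM, with changes of 0.36 and 0.40. No transcript was named CPS1, OTC or ARG1, enzymes of the urea cycle, or ARG2, a mitochondrial arginase, nor BCAT1 or BCAT2, which take the amino group from branched-chain amino acids.

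The genes whose 4 values lay nearest to those of GLUL, after the mean of each gene was taken off, were PHOSPHO1, PCOLCE2, SIK1, FOSL2 and LRRC30. Their distances on the log2 scale over the 4 libraries were 0.09, 0.28, 0.31, 0.32 and 0.37, against a median of 1.73 over all genes. PHOSPHO1, a phosphatase, went from 12.0 to 3.07 RPKM in bear 1 and from 11.2 to 4.58 in bear 2. SIK1, a salt-inducible kinase, went from 4.55 to 1.09 and from 4.50 to 2.31 RPKM, and FOSL2, a subunit of the transcription factor AP-1, from 12.1 to 4.27 and from 12.7 to 6.45 RPKM. With 4 libraries, this likeness is a description.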

How the data were processed

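The authors aligned single-end Illumina reads with SOAP2, allowing 2 mismatches, to transcripts assembled de novo with Newbler and SOAPdenovo, and named transcripts by BLAST against human proteins (Ensembl version 66). They deposited RPKM and transcript lengths; the treatment of reads matching more than 1 transcript is not given in the sources used here. The labels' protocol describes nuclease normalization of cDNA for the 454 libraries, and the deposited values come from single-end Illumina libraries. The study gives full-length cDNA as the input of the single-end libraries, without saying whether that cDNA had been normalized. The labels hold both bears in 1 sample per state, and the column names give bear and month; the age class of each bear could not be checked and is not given. Pooled and paired-end libraries were not analysed here.

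From the deposited RPKM, log2(RPKM + 0.5) was fitted in R 4.3.3 using limma 3.58.1 (two-sided, prior variance with a trend, Benjamini-Hochberg over 9093 annotated transcripts). p-values measure the spread between 2 bears per state. Aligned reads were inferred from whole steps of RPKM times length (95.4% to 98.5% of 282 to 343 low values within 0.1 read of whole). The score used 53228 between-bear differences over 26614 transcripts. Both methods were tested on simulated data. The bear pairs the libraries, being the same animal in both states (Pearson r of deviations 0.356 across transcripts, which are not replicates); blocking was an alternative.

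Members and lists were chosen with earlier results of these data known. The transcript with the most reads stands for a gene; other pathway genes are named by rule where the states did not overlap and the change was at least 0.5 on the log2 scale, and further ones were named after their values were seen. Values of some pathway genes are not reported here. Alternatives covered pseudocount (0.1 and 1), scaling, a mean RPKM of 5, the prior, the transcripts tested, the score threshold (0.9), the choice of transcript, and each library or bear left out. Transcript sequences and coordinates were not used here. Tables were handled and exact tests enumerated with numpy 2.4.6 and pandas 2.3.3 under Python 3.11.15, and plots were drawn with matplotlib 3.10.9.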

Additional observations from a re-analysis of the deposited data

Results flagged for a closer look

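In 4 transcripts the values went in opposite directions in the bears, a difference that was not tested since each bear has 1 library per state. GLUD1 (isotig21337) had log2 changes of -0.80 in bear 1 and 0.10 in bear 2. GOT1 (isotig07730) had -0.71 and 0.028, ASL (isotig22625) -0.65 and 0.085, and CAD (isotig29101) -0.48 and 0.47. Under median-ratio scaling only CAD remained opposite, at -0.58 and 0.29, while the changes of GLUD1, GOT1 and ASL in bear 2 were -0.10, -0.17 and -0.10.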

How the results depend on the processing

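Of 137 alternative values for the changes of the 10 genes, 131 kept the direction and stayed above an adjusted p of 0.05 where tested, 4 changed direction and 2 passed the threshold; the cause was not tested. All 6 came from leaving out a library or a bear. GLUD1 was 0.10 in bear 2 alone (range over left-out libraries and bears -0.80 to 0.10), GPT2 was -0.080 without the hibernating library of bear 2 (-0.080 to 0.94), and ASL was 0.23 without the hibernating library of bear 1 and 0.08 in bear 2 alone (-0.79 to 0.23). GLUL (-1.76) and ALDH4A1 (-1.67) had an adjusted p of 0.0465 in limma's test without the hibernating library of bear 2, with ranges of -1.76 to -1.21 and -1.95 to -0.48, so that the number of members past the threshold ranged from 0 to 5. The number with a score of at least 0.8 was 7 under both scalings, with both GPT transcripts added. It was 4 at a threshold of 0.9 without scaling. The replicate block, which pairs the libraries by bear, left the values as they were and changed no call (smallest adjusted p of a member 0.34, limma). Both ratios kept their direction in each bear and with the mean over transcripts. At a mean RPKM of at least 5, CAD, ABAT and ASL were not tested.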
